A study of Rattus norvegicus with 15 samples.

Results

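The antioxidant enzymes followed here are the products of 10 genes. They are the superoxide dismutases Sod1, Sod2 and Sod3, catalase (Cat), the glutathione peroxidases Gpx1 and Gpx3, both subunits of glutamate-cysteine ligase (Gclc and Gclm), thioredoxin reductase 1 (Txnrd1) and the quinone reductase Nqo1. Every probe set of the rat genome array whose only gene symbol was that of a member was taken. This gave 12 probe sets of the 31042 tested, and 10 of the 14217 genes that the array names. Gclc and Txnrd1 had 2 probe sets each.

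Cells meet superoxide and hydrogen peroxide in successive steps. Superoxide dismutases convert superoxide to hydrogen peroxide in the cytosol (Sod1), in the mitochondrial matrix (Sod2) and outside the cell (Sod3). Catalase in peroxisomes and the glutathione peroxidases then reduce hydrogen peroxide, the latter at the cost of glutathione, whose first and rate-limiting step of synthesis is made by Gclc with its modifier Gclm. Txnrd1 regenerates thioredoxin with NADPH, and Nqo1 reduces quinones. Gclc, Gclm, Txnrd1 and Nqo1 are textbook targets of the transcription factor NRF2 (Nfe2l2), while Sod2 is a known target of inflammatory NF-kB signalling. In the kidney the proximal tubule is rich in peroxisomes and catalase and is the main source of plasma Gpx3.

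RNA of whole kidneys from male rats aged 10 to 12 weeks was hybridised to 15 arrays, 5 per group. The control group (ctr) held native, untreated kidneys of Lewis-Brown-Norway (LBN) rats. In the syngeneic group (sTX) LBN kidneys had been placed in LBN recipients, and in the allogeneic group (aTX) LBN kidneys in Lewis recipients, which reject them acutely. Grafts were removed on day 4, and both own kidneys of each recipient had been taken out, so that the graft was the sole kidney. No immunosuppression was given. These strains follow the methods and the series description, whereas the sample labels give Lewis donors for both grafted groups and LBN recipients for aTX. The series description makes the controls the remaining kidneys of LBN donors, and the sources used here do not say which control and graft share a donor. A treatment field calls sTX 4 and sTX 5 allogeneic, against their titles, and they were kept as syngeneic. By AM or PM in the hybridisation time of their instrument records, arrays fell into 2 runs, called wash runs here as a label only. The first held all ctr arrays with aTX 2, 3 and 4, and the second held all sTX arrays with aTX 1 and 5, so that sTX and ctr never met in a run. The deposited signal is a linear intensity that the authors scaled to a mean of 100 on every array with the upper and lower 2% of probe sets left out. The methods of the paper describe a normalisation onto another arithmetic mean, and the deposited signals were used here as they stand. Such signals compare 1 probe set between arrays, and not 1 gene with another.

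Saturation of bright probe sets was not checked. Their mean signals over the 15 arrays lay at percentiles 73.9 (Nqo1) to 100 (Gpx3) of all probe sets tested, and all 12 exceeded a mean of 50. Sums of marker signals, given next, compare 1 list between arrays and not 1 list with another. The 13 proximal tubule markers summed to signals between 28730 and 39330 in ctr. That sum was 26500 to 32000 in sTX and 12380 to 17460 in aTX. The 7 macrophage markers summed to 527.6 to 620.2 in ctr, 1058 to 1663 in sTX and 5320 to 6035 in aTX, and the 7 T lymphocyte markers to 95.9 to 174.2, 155 to 288.5 and 1800 to 2855. The ratio of 3' to 5' signals of the Gapdh control probe sets was 1.13 to 1.25 in ctr, 1.07 to 1.13 in sTX and 1.01 to 1.07 in aTX. For actin it was 1.54 to 1.98, 1.45 to 1.61 and 1.14 to 1.29, and the part of these ratios in the results was not tested. In whole-kidney RNA, fewer cells of a type and less RNA per cell cannot be told apart.

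The sequences upstream of 3 members are shown because Cat and Gclm fell together on these arrays and Sod2 moved the other way. Each line holds the 250 bases before the annotated start, 5' to 3' on the gene's strand, from RefSeq on the GRCr8 assembly. They are chr1:50050169-50050418 on the minus strand for Sod2, chr3:110329527-110329776 on the minus strand for Cat, and chr2:213031885-213032134 on the plus strand for Gclm. Capitals mark the core of the antioxidant response element (TGACNNNGC), the GC box (GGGCGG) and the CCAAT box (CCAAT), each searched on both strands.
Sod2: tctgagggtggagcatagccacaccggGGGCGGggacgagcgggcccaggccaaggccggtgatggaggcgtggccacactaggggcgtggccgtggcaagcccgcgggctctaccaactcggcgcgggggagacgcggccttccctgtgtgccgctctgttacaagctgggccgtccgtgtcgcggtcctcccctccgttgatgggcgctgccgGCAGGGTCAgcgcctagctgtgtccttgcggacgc
Cat: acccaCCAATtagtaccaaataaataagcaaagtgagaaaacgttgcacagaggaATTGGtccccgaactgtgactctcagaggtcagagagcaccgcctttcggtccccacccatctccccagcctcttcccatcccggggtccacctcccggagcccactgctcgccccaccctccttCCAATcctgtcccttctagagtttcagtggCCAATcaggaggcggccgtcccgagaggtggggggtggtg
Gclm: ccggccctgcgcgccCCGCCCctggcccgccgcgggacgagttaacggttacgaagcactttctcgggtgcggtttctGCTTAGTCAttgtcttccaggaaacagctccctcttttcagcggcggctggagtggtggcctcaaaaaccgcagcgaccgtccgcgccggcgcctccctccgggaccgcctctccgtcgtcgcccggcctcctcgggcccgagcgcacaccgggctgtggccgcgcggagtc
The antioxidant response element core lay on the minus strand in Sod2, from base -35 to -27 as GCAGGGTCA, and in Gclm, from base -172 to -164 as GCTTAGTCA. Of the 27457 promoters of the RefSeq table, 10.2% held that core in the 250 upstream bases, and of the 9 members matched in that table only Sod2 and Gclm held it in this window. The window of Txnrd1 (chr7:22764852-22765101) lay inside the gene span given below. That of Sod1 (chr11:42942573-42942822) lay partly inside its span, and that of Gclc (chr8:87510226-87510475) mostly inside its own. For these genes the bases upstream of the span were thus not fully searched. For no gene, Nqo1 included, were bases upstream of its window searched. Cat carried 4 CCAAT boxes upstream, a motif found upstream in 34.3% of promoters. A GC box stood in Sod2 (-223 to -218) and in Gclm (-235 to -230), and 32.4% of all promoters held this motif upstream. No matches overlapped in these 3 sequences. Such matches describe letters and not binding.

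In the comparison of aTX with ctr, which asks how acute rejection with transplantation altered the kidney, 2 member probe sets were higher and 5 were lower (Sod2 and Nqo1 higher; Sod1, Cat, Gclm and both probe sets of Gclc lower). A probe set was called at an adjusted p below 0.05 (limma, Benjamini-Hochberg over all 31042 probe sets). Of all probe sets 20.2% were called higher and 22.2% lower here. Among the 12626 probe sets averaging 50 or more, a class that holds all members, 4451 were higher and 4860 lower when fitted alone. The median log2 change was -0.13 over the members and -0.08 over all probe sets. Every aTX array lay above every ctr array for 1 member probe set and below every ctr array for 5, against 16.4% and 16.9% of all probe sets.

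Mitochondrial superoxide dismutase had the largest change of the 10 genes in aTX against ctr. The Sod2 gene lies on chromosome 1 from 50043323 to 50050168 (GRCr8). Its signal was 921.5, 1002.4, 979.6, 831.2 and 962.5 in ctr 1 to 5. It was 888.4, 712.8, 825.8, 803.6 and 921.7 in sTX 1 to 5 and 2497.9, 2622.7, 2393.7, 2423.4 and 2190.1 in aTX 1 to 5. All rejecting grafts thus stood clear of both other groups, which overlapped each other. The mean rose from 939 ± 67.4 in ctr (SD, n = 5) to 2426 ± 159 in aTX (n = 5), a log2 change of 1.37 ± 0.08 (SE), or 2.58-fold (limma adjusted p = 1.16e-11). Against sTX (830.5 ± 81) the rise was 2.93-fold (log2 change 1.55 ± 0.08, adjusted p = 6.23e-12). The log2 change in sTX against ctr was -0.18 (95% interval -0.34 to -0.02, adjusted p = 0.118), which did not pass. Within a wash run the rise was as large, with log2 changes of 1.4 against ctr and 1.5 against sTX. Macrophage and T lymphocyte markers were higher in the same arrays, and their part in the Sod2 signal was not tested. The Sod2 signal divided by the geometric mean of the 7 macrophage markers was 16.6 to 21.4 in ctr, 5.47 to 10.5 in sTX and 4.55 to 5.5 in aTX, so those markers rose by more than Sod2.

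Cytosolic superoxide dismutase went the opposite way. Sod1 (chromosome 11, 42942742 to 42948399) gave signals of 3616.4, 3558.7, 3561.0, 4013.4 and 3829.8 in ctr, 3025.2, 3417.1, 2929.9, 3376.3 and 3812.7 in sTX, and 2508.7, 3040.8, 2706.2, 2670.0 and 2590.5 in aTX. All 5 aTX arrays were below all ctr arrays, whereas the highest aTX array reached into the range of sTX. The mean fell from 3716 ± 200 to 2703 ± 203 (n = 5 each), 1.38-fold (log2 change -0.46 ± 0.08, limma adjusted p = 8.59e-05). Against sTX (3312 ± 351) it was 1.22-fold lower (log2 change -0.29 ± 0.08, adjusted p = 0.00767). That call was lost without sTX 4 and 5 (adjusted p = 0.0862) and when each array was centred on its median (0.155). The log2 change of -0.17 in sTX against ctr did not pass (adjusted p = 0.169). The Sod2 signal divided by the Sod1 signal, set to a mean of 1 in ctr, was 3.33 to 3.92 in aTX and 0.821 to 1.16 in sTX.

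The secreted dismutase showed another pattern. Sod3 (chromosome 14, 62822865 to 62828602) gave signals of 633.7, 729.3, 540.6, 721.8 and 708.5 in ctr, 1227.3, 1629.9, 1519.0, 1040.2 and 982.6 in sTX, and 1080.0, 800.6, 721.0, 718.7 and 850.0 in aTX. Each isograft was above each native kidney, and the allografts overlapped both groups. The mean was 666.8 ± 80.1 in ctr, 1280 ± 286 in sTX and 834 ± 148 in aTX (n = 5 each). Sod3 was 1.89-fold higher in sTX than in ctr (log2 change 0.92 ± 0.14, limma adjusted p = 7.04e-05) and 1.52-fold lower in aTX than in sTX (log2 change -0.61 ± 0.14, adjusted p = 0.00136). With the wash run as a block these became 0.56 (adjusted p = 0.217) and -0.39 (adjusted p = 0.0998), and -0.39 within the run that sTX and aTX shared (adjusted p = 0.165). In aTX against ctr the log2 change was 0.32 (95% interval 0.03 to 0.60, adjusted p = 0.0725). It passed under quantile normalisation (0.0408), among probe sets averaging 50 or more (0.0495), with only aTX and ctr in the fit (0.0354) and without sTX 4 and 5 (0.0357). The log2 change was 0.17 both with the run as a block and within 1 run (adjusted p = 0.41 and 0.222), and 0.24 with median centring (adjusted p = 0.196).

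Smooth muscle markers, the vessel wall being a known site of Sod3, moved with it. The 5 markers Acta2, Myh11, Cnn1, Tagln and Des summed to 527.6 to 699.3 in ctr, 1085 to 1457 in sTX and 682.3 to 1018 in aTX. Of these 5, 3 were higher and 0 lower in sTX than in ctr, where run and group cannot be told apart. In aTX against sTX 1 was higher and 4 lower. In aTX against ctr, where Sod3 was not called, 3 were higher and 1 lower (median log2 change 0.48). The Sod3 signal divided by the geometric mean of the 5 markers was 5.14 to 9.44 in ctr, 6.07 to 12.8 in sTX and 6.4 to 10.5 in aTX, so the groups overlapped on that ratio. The part of smooth muscle in the Sod3 signal was not tested.

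**Figure D1:**
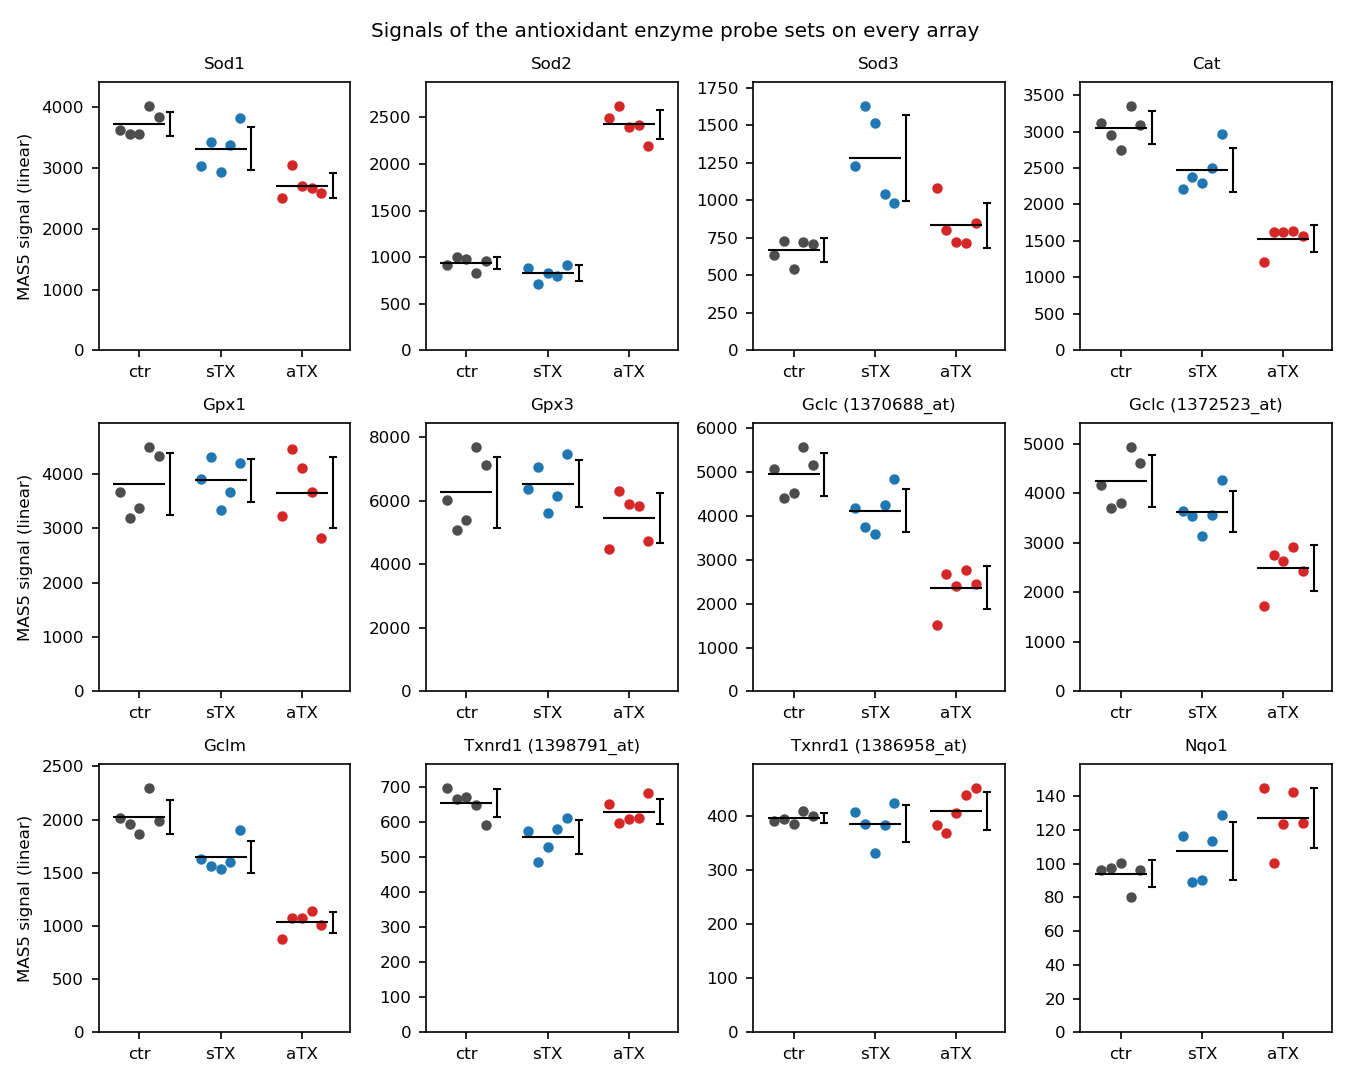
MAS5 signal of each of the 12 probe sets (linear axis from 0) on every array, by group; points are kidneys 1 to 5 from left to right, horizontal lines are group means and bars are ± SD (n = 5). Sod2 was 2190.1 or more on every aTX array and 1002.4 or less on every other. Cat, Gclm and both Gclc probe sets were lower on every aTX array than on any other. The group mean of Sod3 was highest in sTX, with overlap of single sTX and aTX arrays.

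Catalase, the peroxisomal enzyme that splits hydrogen peroxide, was 2.0-fold lower in aTX than in ctr. Cat (chromosome 3, 110297340 to 110329526) gave signals of 3116.5, 2950.4, 2741.9, 3350.6 and 3095.5 in ctr, 2214.9, 2380.3, 2290.8, 2506.1 and 2964.5 in sTX, and 1207.3, 1624.4, 1616.3, 1638.1 and 1573.7 in aTX. The aTX arrays were below every array of the other groups, and 1 isograft, sTX 5, reached the range of ctr. The mean fell from 3051 ± 225 in ctr to 1532 ± 183 in aTX (log2 change -1.0 ± 0.10, limma adjusted p = 2.86e-08). Against sTX (2471 ± 296) it was 1.61-fold lower (log2 change -0.69 ± 0.10, adjusted p = 6.91e-06). Within a run the log2 changes were -0.91 and -0.84. Cat was also 1.24-fold lower in sTX than in ctr (log2 change -0.31 ± 0.10, adjusted p = 0.0292). With the run as a block this was -0.07 (adjusted p = 0.889), and the call was also lost when ctr 1, ctr 4, ctr 5, sTX 1, sTX 2 or sTX 3 was left out (adjusted p = 0.0531 to 0.082).

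The glutathione peroxidases, which remove the same substrate, did not pass in any comparison in the fit of groups only. Gpx1 (chromosome 8, 117905462 to 117906588), the main cytosolic form, gave signals from 3191.9 to 4495.7 in ctr (median 3671.9), 3340.6 to 4318.2 in sTX (median 3907.4) and 2819.8 to 4451.4 in aTX (median 3663.2). All groups overlapped. The log2 change in aTX against ctr was -0.07 (95% interval -0.33 to 0.19, limma adjusted p = 0.71), in sTX against ctr 0.03 (-0.22 to 0.29, adjusted p = 0.895) and in aTX against sTX -0.10 (-0.36 to 0.16, adjusted p = 0.573). With the run as a block these were 0.10, 0.46 and -0.36 (adjusted p = 0.558, 0.208 and 0.0593). Gpx3 (chromosome 10, 39529335 to 39537406), the secreted plasma form, gave 5069.6 to 7697.7 in ctr (median 6012.1), 5602.3 to 7472.0 in sTX (median 6383.8) and 4478.6 to 6323.8 in aTX (median 5829.7). Its log2 change in aTX against ctr was -0.19 (-0.46 to 0.07, adjusted p = 0.249). In aTX against sTX it was -0.27 (-0.53 to -0.001, adjusted p = 0.114), and this passed with the run as a block (log2 change -0.50, adjusted p = 0.0159) and under quantile normalisation (adjusted p = 0.0348). Quantile normalisation also gave a call in aTX against ctr (adjusted p = 0.0204), whereas with the run as a block the change was -0.04 (adjusted p = 0.85). In sTX against ctr Gpx3 had a log2 change of 0.07 (-0.19 to 0.34, adjusted p = 0.77), or 0.46 with the run as a block (adjusted p = 0.258). Set to a mean of 1 in ctr, the ratio of Cat to Gpx1 was 0.451 to 0.69 in aTX and 0.681 to 0.874 in sTX.

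Both subunits of glutamate-cysteine ligase fell with rejection. The catalytic subunit Gclc (chromosome 8, 87510251 to 87548896) was read by the probe set 1370688_at at 5085.5, 4409.9, 4519.0, 5578.7 and 5167.7 in ctr, 4187.8, 3743.7, 3585.6, 4245.1 and 4841.6 in sTX, and 1526.1, 2675.7, 2411.9, 2781.8 and 2443.6 in aTX. All aTX arrays were lower than all others, aTX 1 lowest, while sTX and ctr overlapped. The mean fell from 4952 ± 484 in ctr to 2368 ± 496 in aTX, 2.13-fold (log2 change -1.09 ± 0.13, limma adjusted p = 8.88e-07). Against sTX (4121 ± 492) it was 1.77-fold lower (adjusted p = 4.6e-05). The other probe set, 1372523_at, ranged from 3714.3 to 4939.2 in ctr, 3148.5 to 4280.0 in sTX and 1721.9 to 2911.6 in aTX. It fell in the same comparisons by less, with log2 changes of -0.79 (adjusted p = 2.53e-05) and -0.56 (adjusted p = 0.00118). Neither probe set of Gclc passed in sTX against ctr (log2 changes -0.27 and -0.22, adjusted p = 0.19 and 0.253), and with the run as a block both turned positive at 0.17 and 0.21.

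The modifier subunit Gclm (chromosome 2, 213032135 to 213052192) gave 2012.7, 1955.5, 1864.5, 2296.9 and 1985.3 in ctr, 1631.9, 1565.8, 1535.7, 1604.0 and 1901.0 in sTX, and 873.8, 1073.3, 1070.5, 1144.1 and 1007.9 in aTX. Its aTX arrays too were below every other array, and sTX 5 alone reached the range of ctr. The mean was 2023 ± 163 in ctr, 1648 ± 146 in sTX and 1034 ± 102 in aTX (n = 5 each). This was 1.96-fold lower in aTX than in ctr (log2 change -0.97 ± 0.08, limma adjusted p = 4.78e-09) and 1.60-fold lower than in sTX (-0.67 ± 0.08, adjusted p = 1.39e-06). It was 1.23-fold lower in sTX than in ctr (-0.30 ± 0.08, adjusted p = 0.0149), which became -0.07 (adjusted p = 0.856) with the run as a block. The ratio of Gclc (1370688_at) to Gclm was set to a mean of 1 in ctr. It was 0.954 to 1.08 in sTX and 0.714 to 1.02 in aTX, and both ranges overlapped that of ctr (0.921 to 1.06). This ratio was not taken with Gclc 1372523_at. In aTX against ctr that probe set fell by less than Gclm (log2 changes -0.79 and -0.97).

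Proximal tubule markers fell alongside these enzymes. All 13 (among them Slc34a1, Lrp2 and Aqp1) were lower in aTX than in ctr, with a median log2 change of -1.15, and 5 of 13 were lower in sTX than in ctr (median -0.33). Markers of other kidney cells were lower in aTX than in ctr as well, with 5 of 5 for the thick ascending limb (median -0.93), 2 of 3 for the distal tubule (-1.04), 4 of 5 for the collecting duct (-0.93), 3 of 3 for podocytes (-1.11) and 6 of 6 for endothelium (-1.28). The Cat signal divided by the geometric mean of the 13 markers was 1.35 to 1.65 in ctr, 1.29 to 1.61 in sTX and 1.71 to 1.84 in aTX. The same ratio was 0.868 to 1.12, 0.847 to 1.03 and 1.13 to 1.27 for Gclm, and 2.14 to 2.71, 2.02 to 2.62 and 2.22 to 2.99 for Gclc (1370688_at). It was 1.8 to 2.29, 1.91 to 2.32 and 2.5 to 3.09 for the other probe set of Gclc (1372523_at). The median ratio was higher in aTX than in ctr for all 4 probe sets, and the ranges of aTX and ctr overlapped for Gclc 1370688_at alone. For Sod1 this ratio was 1.65 to 2.14 in ctr and 2.78 to 3.65 in aTX, without overlap. Gpx1 and Gpx3, which were not called, did not fall with the markers. Their ratio went from 1.55 to 2.03 in ctr to 3.15 to 4.98 in aTX for Gpx1, and from 2.46 to 3.24 to 5.31 to 7.07 for Gpx3. The part of tubular cell number in the falls of Cat, Gclm, Gclc and Sod1 was not tested.

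Txnrd1 and Nqo1, which share NRF2 as a known regulator with both ligase subunits, were not called lower with them in aTX against ctr. Nqo1 (chromosome 19, 52205374 to 52220267) gave 96.4, 97.4, 100.7, 80.0 and 96.3 in ctr, 116.2, 89.4, 90.6, 113.4 and 128.9 in sTX, and 144.9, 100.5, 123.5, 142.6 and 123.9 in aTX. Only aTX 2 fell within the range of ctr, so the groups just overlapped. The mean rose from 94.16 ± 8.11 to 127 ± 17.9 (n = 5 each), 1.34-fold (log2 change 0.43 ± 0.12, limma adjusted p = 0.00556). In aTX against sTX (107.7 ± 17.2) its log2 change of 0.24 did not pass (adjusted p = 0.122), but it did on arrays centred on their medians (0.0156), without sTX 4 and 5 (0.0409) and without aTX 2 (0.0352). The log2 change in sTX against ctr was 0.18 (adjusted p = 0.331).

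Txnrd1 (chromosome 7, 22717620 to 22802553) had the smallest changes in aTX against ctr. Its probe set 1398791_at ranged from 592.7 to 697.3 in ctr (median 664.9), 486.6 to 611.3 in sTX (median 575.5) and 597.1 to 681.9 in aTX (median 611.4). The isografts were mostly the lowest, with overlap. It was 1.18-fold lower in sTX than in ctr (log2 change -0.24 ± 0.07, limma adjusted p = 0.0221) and 1.13-fold higher in aTX than in sTX (0.18 ± 0.07, adjusted p = 0.0479). In aTX against ctr it was -0.06 (95% interval -0.20 to 0.09, adjusted p = 0.577). The lower sTX signal did not pass with the run as a block (log2 change -0.38, adjusted p = 0.0982), nor without ctr 1, sTX 2 or sTX 3 (adjusted p = 0.0542 to 0.0692), and the difference between aTX and sTX was lost when any of 11 single arrays was left out (adjusted p = 0.0502 to 0.142). The other probe set, 1386958_at, ranged from 386.5 to 409.1 in ctr, 332.4 to 424.4 in sTX and 370.0 to 452.7 in aTX, and passed in no comparison (adjusted p = 0.669, 0.766 and 0.391), so the probe sets of Txnrd1 differed in their calls.

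**Figure D2:**
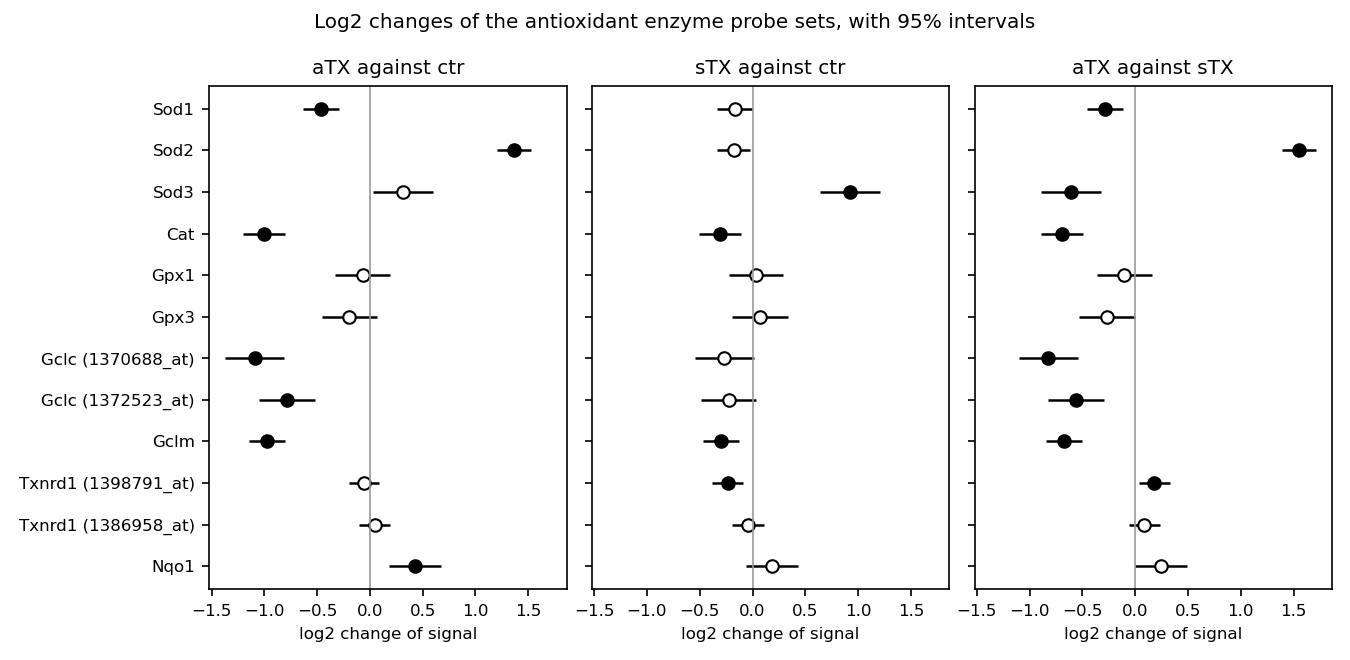
Log2 change of signal (horizontal axis) of each probe set in the 3 comparisons, with 95% intervals from the limma fit; filled points passed an adjusted p of 0.05 and open points did not. Sod2 stands alone at 1.37 and 1.55 in the comparisons that involve aTX, opposite to Cat, Gclc and Gclm, and Sod3 is the only probe set of the 12 called higher in sTX against ctr.

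Over the comparison of sTX with ctr, which addresses the surgery and ischaemia of grafting without rejection, 1 member probe set was higher (Sod3) and 3 were lower (Cat, Gclm and Txnrd1 1398791_at). Of all probe sets 11.4% were higher and 6.32% were lower. Of the 12626 probe sets averaging 50 or more, fitted alone, 2803 were higher and 1954 lower. The groups did not overlap for 1 member that was higher and for 0 that were lower, against 8.44% and 4.72% of all probe sets. The median log2 change was -0.18 over the members and 0.09 over all probe sets. With the run as a block no member passed (at an unadjusted p below 0.05 there were 4, namely Sod3, Gpx1, Gpx3 and Txnrd1 1398791_at), and calls over all probe sets dropped from 3539 higher and 1961 lower to 713 and 255. That fit joins the runs through the aTX arrays alone, and within the sTX and ctr arrays run and group cannot be told apart. Centring each array on its median gave 8 members lower and 1 higher, beside 4724 lower and 1812 higher of all 31042 probe sets. It also moved the median of all probe sets to -0.11.

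For aTX against sTX, which sets rejecting grafts beside grafts without rejection, 2 member probe sets were higher (Sod2 and Txnrd1 1398791_at) and 6 were lower (Sod1, Sod3, Cat, Gclm and both of Gclc), against 13.9% and 22.1% of all probe sets. Arrays did not overlap for 1 that was higher and 4 that were lower, against 12.1% and 17% of all. The median log2 change was -0.28 over the members and -0.18 over all probe sets. Of the 12626 probe sets averaging 50 or more, fitted alone, 3521 were higher and 4812 lower. Without overlap were Sod2 above, and Cat, Gclm and both probe sets of Gclc below. On arrays centred on their medians, where the split of all calls turned from 4327 higher and 6857 lower to 5427 and 5242, 4 members were higher. As both grafted comparisons with ctr share the control arrays, and the remaining one shares the grafts, the 3 sets of changes are not independent.

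**Figure D3:**
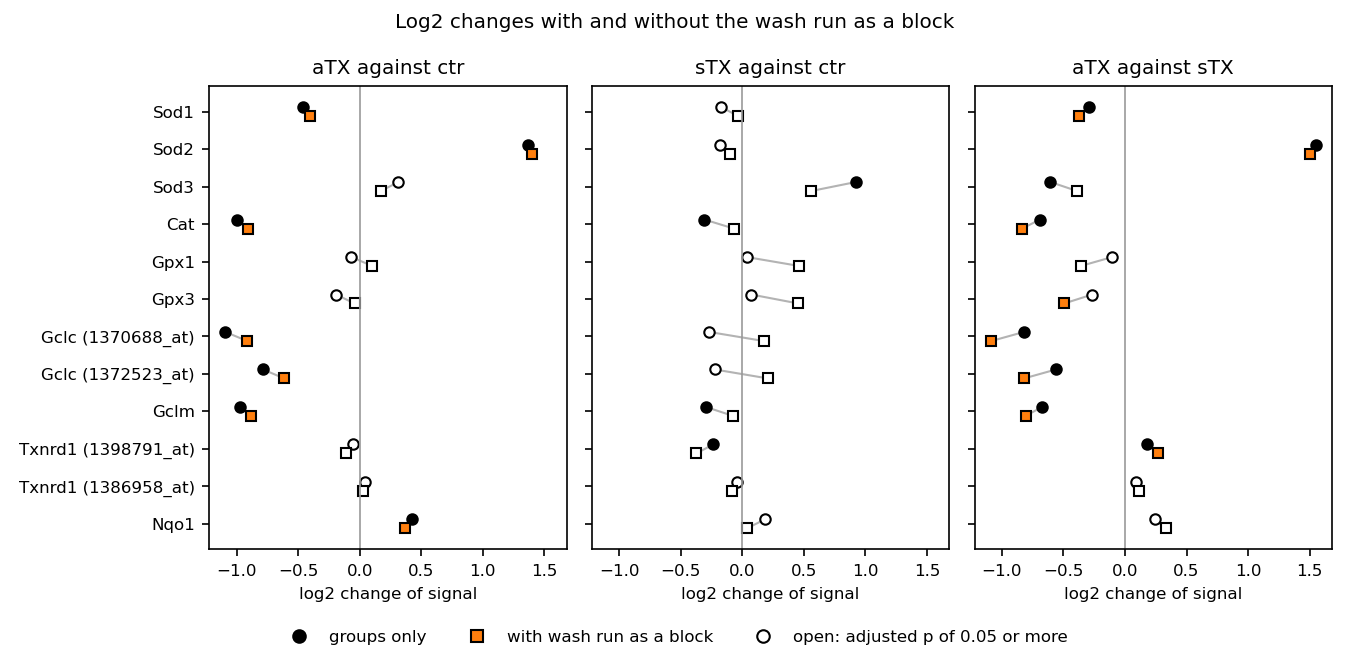
Log2 change of each probe set (horizontal axis) in the fit of groups only (circles) and when the wash run was a block (squares), per comparison; filled symbols passed an adjusted p of 0.05. The changes of Sod2, Sod1, Cat, Gclc, Gclm and Nqo1 in aTX against ctr were filled in both fits, whereas 0 members were filled in sTX against ctr with the run as a block.

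The genes around these enzymes were read from 11 lists, by the probe set with the highest mean log2 signal of each gene and in the fit of groups only, so for sTX against ctr run and group cannot be told apart. Their counts in aTX against ctr stand beside the 20.2% of all probe sets called higher and the 22.2% called lower. They also stand beside the 12626 probe sets averaging 50 or more, of which 4451 were higher and 4860 lower when fitted alone. Some genes stand on more than 1 list, among them Srxn1, Pgd, Me1 and Gpx4, so the list counts are not independent. Among 11 thioredoxin and peroxiredoxin genes, 5 were higher and 6 lower in aTX than in ctr. Sulfiredoxin (Srxn1), which repairs overoxidised peroxiredoxins, rose 1.97-fold (adjusted p = 2.98e-07), and Prdx4, the peroxiredoxin of the endoplasmic reticulum, 1.64-fold (adjusted p = 5.84e-07). The thioredoxin inhibitor Txnip fell 1.56-fold (adjusted p = 6.93e-06). All 3 had also passed in sTX against ctr, with log2 changes of 1.0, 0.87 and -0.83, where 3 genes of the list were higher and 1 was lower. Of the other glutathione peroxidases, Gpx2, an epithelial form, rose from 164 ± 39.1 in ctr to 448 ± 88 in sTX and 485 ± 63.5 in aTX (adjusted p = 1.71e-06 and 4.9e-08). Gpx7, a form of the endoplasmic reticulum, was 2.82-fold higher in sTX and 2.0-fold higher in aTX than in ctr. Gpx4, which reduces lipid peroxides in membranes, fell from 2580 ± 92.2 in ctr to 1560 ± 77 in aTX (1.65-fold, adjusted p = 8.2e-09). Thus 2 of these 4 were higher and 1 lower in aTX against ctr, and 3 were higher in sTX against ctr, unlike Gpx1 and Gpx3, which passed in neither.

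Glutathione genes followed Gclc and Gclm for the most part. Of 16 genes for its synthesis, recycling and breakdown, 2 were higher and 11 lower in aTX than in ctr, with a median log2 change of -0.68 against -0.08 over all probe sets. Cystathionine gamma-lyase (Cth) and cystathionine beta-synthase (Cbs), which make the cysteine that glutathione needs, fell 4.27-fold and 3.29-fold (adjusted p = 9.36e-12 and 1.23e-11). Glutaredoxin (Glrx), which reduces glutathionylated proteins, rose from 94.3 ± 21.8 to 675 ± 30.7 (7.31-fold, adjusted p = 2.03e-12). The counts in sTX against ctr were 3 higher and 6 lower. Among 7 genes of NADPH supply, 2 were higher and 4 lower in aTX than in ctr. Malic enzyme (Me1) fell 4.27-fold (adjusted p = 2.17e-10), the cytosolic isocitrate dehydrogenase Idh1 2.06-fold (1.16e-07), and Pgd of the pentose phosphate pathway rose 1.88-fold (8.97e-09). Against ctr, 0 were higher and 2 lower in sTX.

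NRF2, its partners and its targets moved in both directions. Of 9 genes of this list 5 were higher and 2 lower in aTX than in ctr. Nfe2l2 rose from 610 ± 85.8 to 874 ± 68.1 (1.44-fold, adjusted p = 7.46e-05) and its inhibitor Keap1 from 102 ± 6.44 to 174 ± 11.8 (1.71-fold, adjusted p = 2.44e-07). The ubiquitin ligase subunit Rbx1 rose 1.66-fold (adjusted p = 1.03e-07). The repressor Bach1 gave 4.22-fold (adjusted p = 0.0057), but from signals of 4.1 ± 2.56 to 15.9 ± 4.81, far below the array mean. Isografts had 0 higher and 3 lower than ctr, and Nfe2l2 and Keap1 did not pass (log2 changes 0.19 and 0.02, adjusted p = 0.184 and 0.894). Of 15 other NRF2 targets 5 were higher and 6 lower in aTX than in ctr. Heme oxygenase 1 (Hmox1) rose the most with a log2 change of 4.51 (adjusted p = 3.69e-14), while Osgin1 fell 4.58-fold (1.52e-08) and Me1 fell as given above. The NRF2 targets Hmox1 and Nqo1 were thus higher in the group in which Gclc, Gclm, Me1 and Osgin1 were lower. Of the 15, 3 were higher and 2 lower in sTX than in ctr.

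Genes that supply copper and selenium to these enzymes were mostly lower in aTX. Of 4 copper delivery genes 1 was higher and 3 lower in aTX than in ctr. The copper importer Slc31a1 fell 1.93-fold (adjusted p = 2.13e-10) and Ccs, the copper chaperone of Sod1, 1.76-fold (1.49e-09), while the copper pump Atp7a rose 1.26-fold (0.00669). Of these Ccs alone was also lower in sTX than in ctr (log2 change -0.26, adjusted p = 0.00568). Gpx1, Gpx3 and Txnrd1 are selenoproteins, and of 8 genes of selenoprotein synthesis 0 were higher and 7 lower in aTX against ctr, with a median log2 change of -0.70. Selenocysteine lyase (Scly) fell 2.34-fold (adjusted p = 3.05e-10), Sepsecs, which completes selenocysteine on its transfer RNA, 2.01-fold (4.54e-10) and the selenophosphate synthetase Sephs2 1.65-fold (6.78e-08). Of the 8, 1 was higher and 3 were lower in sTX than in ctr. The 12 other selenoproteins were split, 5 higher and 4 lower in aTX and 3 higher and 2 lower in sTX against ctr. The deiodinase Dio1 fell 4.50-fold (adjusted p = 6.55e-07) and the methionine sulfoxide reductase Msrb1 2.17-fold (7.35e-10), and Selenow rose 2.36-fold (5.3e-10) in aTX.

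Most genes read for the peroxisome, where catalase resides, were lower in aTX. Of 19 measured genes 1 was higher and 14 were lower in aTX than in ctr, with a median log2 change of -0.49. The largest falls were in Pex11a, which promotes peroxisome division (3.13-fold, adjusted p = 4.24e-10), Ehhadh of peroxisomal fatty acid oxidation (3.04-fold, 1.04e-09) and the membrane protein Pxmp4 (2.72-fold, 1.15e-09). Isografts had 1 higher and 7 lower than ctr. Enzymes that form superoxide or peroxide went up in part, with 5 of 9 higher and 2 lower in aTX than in ctr, and 2 higher and 0 lower in sTX than in ctr. The phagocyte oxidase genes Ncf4, Cybb and Ncf1 rose 12.6-fold, 9.76-fold and 8.46-fold (adjusted p = 3.31e-14, 6.66e-14 and 2.4e-08). Ncf1 rose from 15.9 ± 8.62 in ctr, below the lowest array median of 24.3, to 120 ± 18.4 in aTX. In aTX against sTX the counts were 2 higher and 5 lower of 11 for thioredoxins and peroxiredoxins, 0 and 3 of 4 for other glutathione peroxidases, 2 and 11 of 16 for glutathione, 2 and 4 of 7 for NADPH, 5 and 1 of 9 for NRF2 and its regulators and 3 and 6 of 15 for its other targets. They were 0 and 3 of 4 for copper, 0 and 6 of 8 for selenoprotein synthesis, 4 and 5 of 12 for other selenoproteins, 1 and 14 of 19 for the peroxisome and 5 and 2 of 9 for the oxidases.

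**Figure D4:**
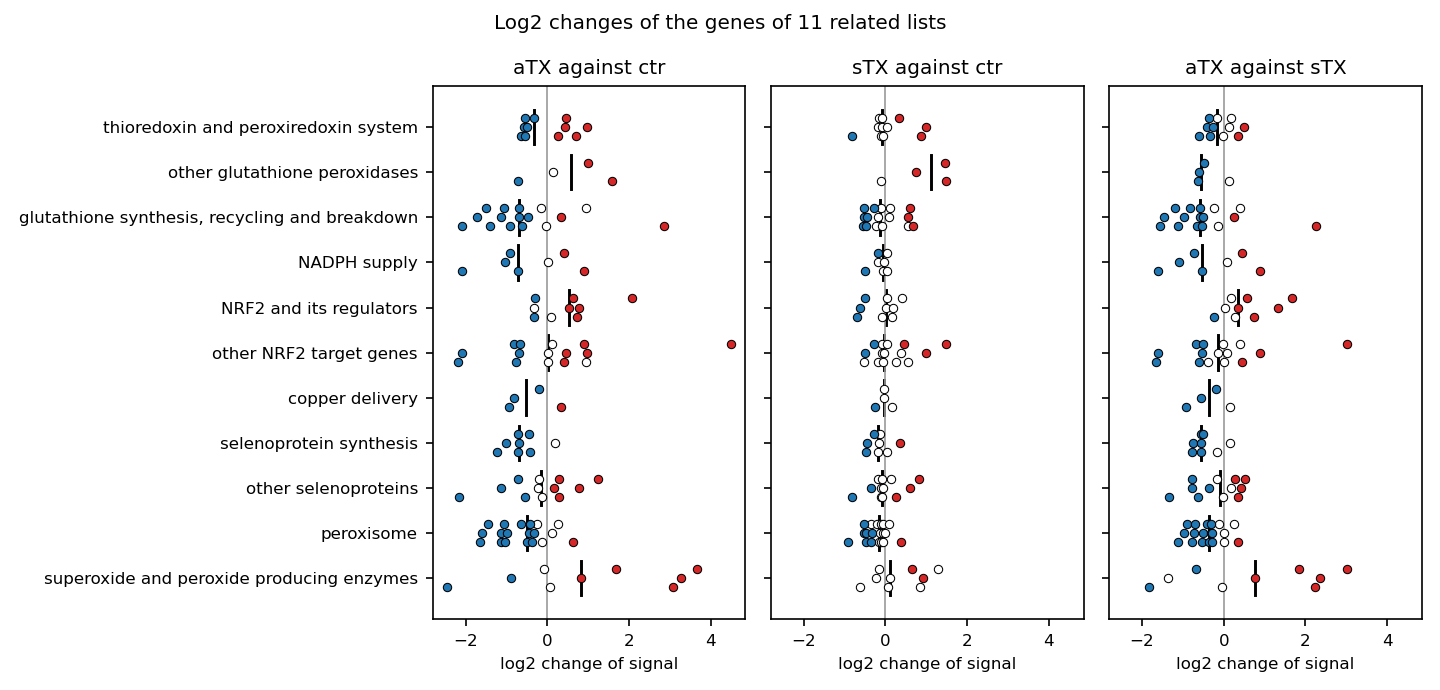
Log2 change of signal (horizontal axis) of each measured gene of the 11 lists, per comparison; red points were called higher, blue points lower and open points passed in neither direction, and vertical bars are list medians. In aTX against ctr the medians of the glutathione, NADPH and selenoprotein synthesis lists lie at -0.68, -0.72 and -0.70, those of NRF2 with its regulators and of the oxidases at 0.53 and 0.82.

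The genes whose log2 signals resembled each member most were sought among the 7368 named probe sets whose mean signal reached 100, by Pearson's r over the 15 arrays, which share groups and runs. Cat was most like Pepd (r = 0.991), Gclm (0.991) and Gcdh (0.989), and Gclm most like Aqp1 (0.993), Cat (0.991) and Hibadh (0.99). Gclc (1370688_at) was most like Umod (0.983), Slc27a2 (0.982) and Egf (0.982), all genes of tubular epithelium. Sod1 was most like Oxct1 (0.967), Ndufb9 (0.959) and Suclg2 (0.958), whose products work in mitochondria. Sod2 was most like Nub1 (0.989), Plaat3 (0.988) and Bid (0.986), and Sod3 like Pafah1b2 (0.927), Cald1 (0.915) and Tspan31 (0.915). Cald1 encodes the actin-binding caldesmon of smooth muscle. Gpx3 was nearest to Kap (0.952), an androgen-regulated gene of the proximal tubule, then Itm2b (0.931) and Atp5pb (0.93), and Gpx1 to the mitochondrial COX2 (0.978), Atp1b1 (0.929) and Igfbp7 (0.925). The likeness was weaker for Nqo1, with Tmem109 (0.889), Pdcd2 (0.881) and Surf4 (0.857), and for Txnrd1 (1398791_at), with Snf8 (0.85), Noct (0.85) and Pnpla2 (0.849).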

How the data were processed

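RNA of 15 rat kidneys (5 each of ctr, sTX and aTX, grouped by sample titles) was measured on Affymetrix Rat Genome 230 2.0 arrays. The deposited values are linear signal intensities that the authors computed with MAS5, summarised per probe set and scaled on each array. This was checked on the table, in which the mean without the upper and lower 2% of probe sets is 100 on all 15 arrays. The scaling fixes a mean over all genes, so a broad shift in some genes moves the rest. Array medians ranged from 24.3 to 30.0. Detection calls were not used here, and arrays give no counts, so their number limits the precision. Deposited instrument records gave the hybridisation time of each array, and AM or PM set its run. No wash or stain field was read. The series description gives 5 kidneys per group, and p-values measure the spread between these arrays.

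Of 31099 probe sets 57 are controls and 31042 were tested, with 54 signals of 0 set to 0.05 before the logarithm. Names came from the annotation table of the array (20826 probe sets with 1 symbol, 436 with several and 9780 unnamed here). Differences of log2 signal between groups were fitted by limma 3.58.1 under R 4.3.3 (1 linear model over all 15 arrays, group contrasts, eBayes with trend), two-sided, with Benjamini-Hochberg adjustment and a threshold of 0.05. The fit was tested on simulated data. Folds are ratios of geometric means, levels are arithmetic means ± SD. Tables and plots used Python 3.11.15, pandas 2.3.3, numpy 2.4.6 and matplotlib 3.10.9.

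Named genes follow a rule. They are all members, up to 3 called genes of each list with the largest change in aTX against ctr, with Hmox1, Nfe2l2 and Keap1, and the 3 genes most correlated with each member. The members and lists were chosen with earlier results of these data known. Alternatives were other scalings, offsets, floors, a filter at a mean signal of 50, the methods' t-test (unadjusted at 0.001 and adjusted), fits without a trend or with 2 groups only, replicate and run blocks, within-run fits, and leaving out arrays. Some listed genes are not reported here.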

Additional observations from a re-analysis of the deposited data

Results flagged for a closer look

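Each of the 36 groups of 5 signals (12 probe sets in 3 groups) was examined for an array far from its group, and chance alone marks about 1 group in 20. Of these, 3 groups had such an array. The Cat signal of aTX 1 was 1207.3, the lowest of its group, with a gap to the next array of 0.851 of the group's range. The Nqo1 signal of ctr 4 was 80.0, the lowest of its group, with a gap of 0.787 of the range. The Gclm signal of sTX 5 was 1901.0, the highest of its group, with a gap of 0.737 of the range. Without aTX 1 the log2 change of Cat in aTX against ctr was -0.92, without ctr 4 that of Nqo1 was 0.37, and without sTX 5 that of Gclm in sTX against ctr was -0.35, and these 3 changes were called with and without those arrays.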

How the results depend on the processing

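In aTX against ctr, 5 probe sets were lower under every alternative but quantile normalisation (6), and the count of 2 higher ranged from 2 to 3 but was 1 with the methods' t-test at an unadjusted p of 0.001. In sTX against ctr the single call higher was lost when the wash run was a block (0), and the 3 calls lower became 8 with arrays centred on their medians, 1 with the methods' t-test after adjustment, 0 with it at 0.001, 1 without the intensity trend and 0 with the run as a block. In aTX against sTX the 2 calls higher became 4 with median centring and 1 with quantile normalisation, the t-test (adjusted and at 0.001), no intensity trend, only the 2 groups, the replicate block and within 1 wash run. The 6 calls lower became 2 with the t-test at 0.001 and were 5 to 7 otherwise. With median centring the calls lower over all probe sets in sTX against ctr rose from 1961 to 4724. Where calls moved, the cause was not tested.

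Changes that turned sign had not been called. In aTX against ctr these were Gpx1 at 0.10 with the run as a block and within a run, and Txnrd1 (1386958_at) at -0.03 with median centring. In sTX against ctr median centring gave -0.16 for Gpx1, -0.12 for Gpx3 and -0.011 for Nqo1, quantile normalisation gave -0.012 for Gpx3, and the run as a block gave 0.17 and 0.21 for Gclc. In aTX against sTX median centring gave 0.017 for Gpx1.

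With each array left out in turn, the counts in aTX against ctr stayed at 2 higher and 5 lower. They ranged from 1 to 1 higher and 1 to 3 lower in sTX against ctr, and from 1 to 3 higher and 6 to 6 lower in aTX against sTX. The lowest count of 1 lower in sTX against ctr came without ctr 1, sTX 2 or sTX 3. The log2 change ranged from -0.14 to 0.02 for Gpx1 in aTX against ctr, from -0.027 to 0.097 for Gpx1 and from -0.076 to 0.012 for Txnrd1 (1386958_at) in sTX against ctr.

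Arrays of different groups with the same number did not deviate together (15 pairs, r of -0.02 to 0.03, 0 above 0.1), so the numbers were not taken to pair kidneys. The replicate block gave 2 higher and 5 lower in aTX against ctr, 1 and 3 in sTX against ctr, and 1 and 6 in aTX against sTX, where Txnrd1 (1398791_at) was lost (adjusted p = 0.0578).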
